A study of Homo sapiens with 3 samples.

Results

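The baseline transcriptome of Cal-33, an established line from a squamous cell carcinoma of the human tongue, was read from cells that had received a control small interfering RNA (siRNA), 72 h after its transfection. The series holds 3 Cal-33 libraries, siControl with that control siRNA, sip53 with an siRNA to p53 and siBACH1 with an siRNA to the repressor BACH1, all of genotype WT by their labels. The siControl column was taken by its label, so 1 library of 3 is described, and its values have no replicate, error or test. The line stands for 1 tumour and was grown in serum-supplemented DMEM, and the labels do not name the control siRNA. The question here is which genes these cells express, at what level, and which lineage genes they lack, without any knockdown contrast.

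Values are TPM, transcripts per 1000000, which correct for transcript length and so allow levels of different genes to be compared. Of 28890 listed genes, 19248 were nuclear-encoded and protein-coding by RefSeq gene type, and ranks below are among these. The 13 mitochondrially encoded genes took 24.8% of the listed TPM, nuclear protein-coding genes 73.2% and pseudogenes 1.96%. TPM keeps no read depth, so no interval or detection limit can be given, and an absent gene here means one listed under 1 TPM. In RNA from a whole culture, fewer cells of a type and less RNA per cell cannot be told apart.

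Squamous epithelium is built from a proliferating basal layer and suprabasal layers that differentiate upward. Basal cells carry the keratin pair KRT5 and KRT14 and the transcription factor TP63, and the wet, non-cornified mucosa of the mouth carries KRT4 and KRT13 above them. KRT17 is a keratin of injured and proliferating epithelium. All 4 markers named for the line, KRT5, KRT13, KRT17 and TP63, were high. KRT5 (chromosome 12, 52514575 to 52520394, minus strand, GRCh38.p14 coordinates of RefSeq) was at 4883 TPM and ranked 6. KRT13 (chromosome 17, 41500981 to 41505612, minus strand) was at 3821 TPM and ranked 7. KRT17 (chromosome 17, 41619442 to 41624575, minus strand) was at 758 TPM and ranked 134. TP63 (chromosome 3, 189596746 to 189897276, plus strand) was at 246 TPM and ranked 443, above 97.7% of nuclear protein-coding genes. The 4 markers together held 1.36% of nuclear protein-coding TPM. They had been named for the line beforehand, so their levels describe this library, and the label of a squamous line was not tested.

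The most abundant nuclear transcript was a keratin. KRT15, a type I keratin of basal epithelial cells, stood first at 6823 TPM. EEF1A1, the elongation factor that brings tRNA to the ribosome, followed at 6538 TPM, the glycolytic enzyme GAPDH at 6061 TPM and the prolyl isomerase PPIA at 5881 TPM. RPS2, a protein of the small ribosomal subunit, was at 4992 TPM, ahead of KRT5 and KRT13. RPL41, the smallest ribosomal protein, was at 3818 TPM, the small heat shock protein HSPB1 at 3202 TPM and RPL7 at 2715 TPM, which completes the first 10. Thus 3 of the 10 most abundant nuclear transcripts encoded keratins of squamous epithelium.

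Ranks 11 to 30 were filled by the translationally controlled protein TPT1 (2622 TPM), ACTB (2486 TPM), the calcium-binding protein S100A2 (2483 TPM), the ferritin heavy chain FTH1 (2334 TPM), the nucleolar chaperone NPM1 (2038 TPM), the glycolytic enzyme ENO1 (1927 TPM), the chaperone HSPA8 (1907 TPM) and ribosomal proteins. The ribosomal proteins in these ranks were RPL37A, RPL8, RPL30, RPL35, RPL12, RPS23, RPL4, RPS15A, RPS21, RPL19, RPLP0, RPS20 and RPLP1, from 2590 TPM for RPL37A to 1953 TPM for RPLP1. In all, 16 of the 30 most abundant and 55 of the 100 most abundant genes encoded ribosomal proteins. The other 45 of the 100 included 6 glycolytic enzymes, 6 cytoskeletal proteins, 6 translation factors or ribosome partners, 5 chaperones or isomerases, 5 S100 proteins or annexins, 3 keratins, 2 ferritin chains and the 2 chains of the large neutral amino acid transporter, SLC7A5 (1530 TPM) and SLC3A2 (1086 TPM). These classes were assigned after the genes were seen.

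Abundance was concentrated in few genes. The first 10 genes held 6.81% of nuclear protein-coding TPM, the first 100 held 26.4% and the first 1000 held 60.5%. The 100 most abundant made up 19.3% of all listed TPM. The 88 listed ribosomal protein genes held 15.4% of nuclear protein-coding TPM, with a median of 1229 TPM. At the other end, 11706 of 19248 genes, or 60.8%, were at 1 TPM or more, 3412 lay above 0 and under 1 TPM, and 4130 were listed at 0. Between these ends, 3508 genes lay from 1 to under 10 TPM, 6916 from 10 to under 100 TPM, 1185 from 100 to under 1000 TPM and 97 at 1000 TPM or more. The median was 5.44 TPM over all genes and 19.8 TPM over those at 1 TPM or more. MTRNR2L12, a nuclear near-copy of mitochondrial ribosomal RNA, was listed at 8407 TPM, above KRT15, but RefSeq types it as a pseudogene, and as a near-copy its value is uncertain.

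**Figure D1:**
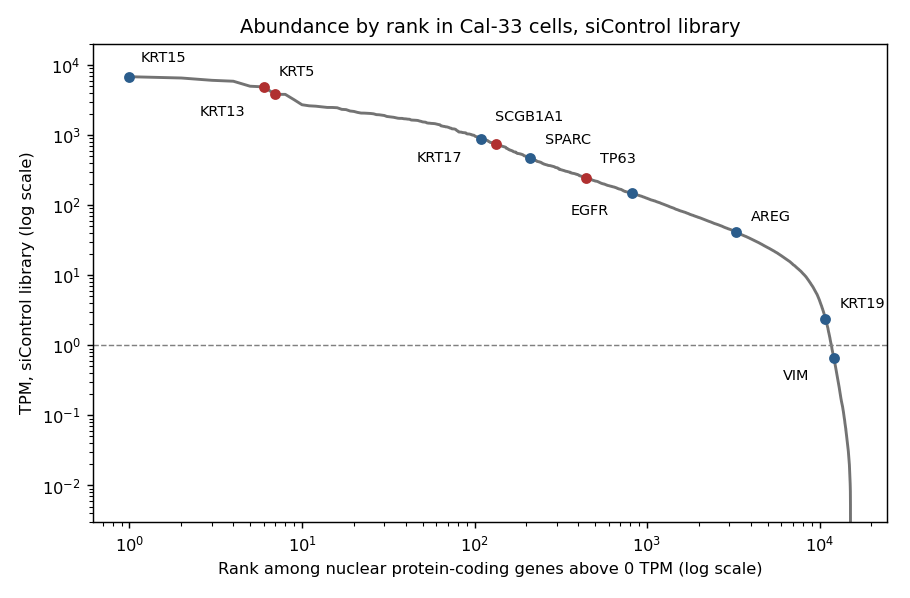
TPM in the siControl library (vertical log axis) against rank among nuclear protein-coding genes above 0 TPM (horizontal log axis). The dashed line is 1 TPM, the 4 markers are red and other named genes are blue. KRT15 stands first at 6823 TPM, and VIM lies below the line at 0.654 TPM. The lowest levels above 0 run off the bottom of the axis.

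Part of the abundant genes had features at their start sites that their choice by level did not use. Transcripts of the translation machinery often begin with a C followed by a run of pyrimidines, the terminal oligopyrimidine tract through which growth signals control their translation, and other strongly expressed genes carry a TATA box upstream of the start. Windows from 40 bases before to 15 bases from the start are shown for 6 abundant genes whose RefSeq start has the pyrimidine tract, in capitals (GRCh38.p14, from RefSeq, 5′ to 3′). EEF1A1 also has the letters TATAA in capitals.
EEF1A1 (chr6:73521018-73521072, minus strand): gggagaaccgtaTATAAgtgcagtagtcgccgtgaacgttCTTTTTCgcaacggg
TPT1 (chr13:45341169-45341223, minus strand): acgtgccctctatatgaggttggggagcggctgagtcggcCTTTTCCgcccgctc
RPL41 (chr12:56116593-56116647, plus strand): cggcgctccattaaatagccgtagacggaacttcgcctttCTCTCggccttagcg
RPL37A (chr2:216498804-216498858, plus strand): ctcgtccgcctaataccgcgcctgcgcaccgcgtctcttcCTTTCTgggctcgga
RPS23 (chr5:82278340-82278394, minus strand): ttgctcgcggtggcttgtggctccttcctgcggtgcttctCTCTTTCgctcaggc
RPL7A (chr9:133348178-133348232, plus strand): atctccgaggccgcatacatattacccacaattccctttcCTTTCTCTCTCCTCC

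Of the 100 most abundant genes, 78 had a promoter in the RefSeq table, and 35 of these (44.9%) had a C at the start followed by 4 or more pyrimidines, against 4.66% of 15387 nuclear protein-coding promoters and 4.04% of all 27303 promoters searched. Among ribosomal protein genes 44 of 68 had it (64.7%). Among the 36 abundant genes with a promoter that do not encode ribosomal proteins, 7 did (19.4%). EEF1A1 and TPT1, shown above, are 2 of those 7. The share was 10.8% at ranks 101 to 1000, 4.78% over the other genes at 1 TPM or more, 3.42% over genes above 0 and under 1 TPM, and 2.87% over genes listed at 0.

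Other abundant genes, KRT5 and HSPB1 among them, carried TATA-like letters. KRT13 and KRT15, the other keratins among the 100 most abundant, were not among the promoters searched. The same windows are shown for 5 of the 100 most abundant genes and for KRT4 (rank 268), all with TATAA or ATAAA between 40 and 16 bases before the start, in capitals, searched on the sense strand and counted once where both overlap (GRCh38.p14, from RefSeq, 5′ to 3′).
PPIA (chr7:44796641-44796695, plus strand): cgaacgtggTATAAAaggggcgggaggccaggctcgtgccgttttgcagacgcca
KRT5 (chr12:52520380-52520434, minus strand): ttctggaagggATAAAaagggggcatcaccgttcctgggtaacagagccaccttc
HSPB1 (chr7:76302633-76302687, plus strand): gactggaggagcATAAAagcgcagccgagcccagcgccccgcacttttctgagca
ANXA2 (chr15:60397972-60398026, minus strand): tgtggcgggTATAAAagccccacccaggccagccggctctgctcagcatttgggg
B2M (chr15:44711477-44711531, plus strand): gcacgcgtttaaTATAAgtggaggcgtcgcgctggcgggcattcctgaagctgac
KRT4 (chr12:52814102-52814156, minus strand): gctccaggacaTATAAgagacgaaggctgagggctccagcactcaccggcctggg

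Such letters stood in 16 of the 78 promoters of the 100 most abundant genes (20.5%), and in 13 of the 36 that do not encode ribosomal proteins (36.1%), against 8.09% of nuclear protein-coding promoters and 6.58% of all promoters searched. They also stood in 23 of 64 promoters of squamous and oral identity genes at 1 TPM or more (35.9%), and in 42 of 143 promoters of other-lineage genes under 1 TPM (29.4%). Across levels the share was lowest, at 3.67%, over the genes at 1 TPM or more outside the first 1000, and was 17.2% over genes listed at 0. Mean GC content was 64.8% over those middle genes, 60.7% over the 100 most abundant and 53.8% over genes listed at 0. It was 63.8% over the 36 abundant promoters of other than ribosomal protein genes and 58.6% over ribosomal protein promoters, where the TATA-like share was 11.8%. The part of base composition in the shares was not tested. A match is a description of letters at the RefSeq start, which need not be the start used in these cells. The 100 most abundant genes were also short, with a median genomic span of 5.45 kb against 25.5 kb over all.

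**Figure D2:**
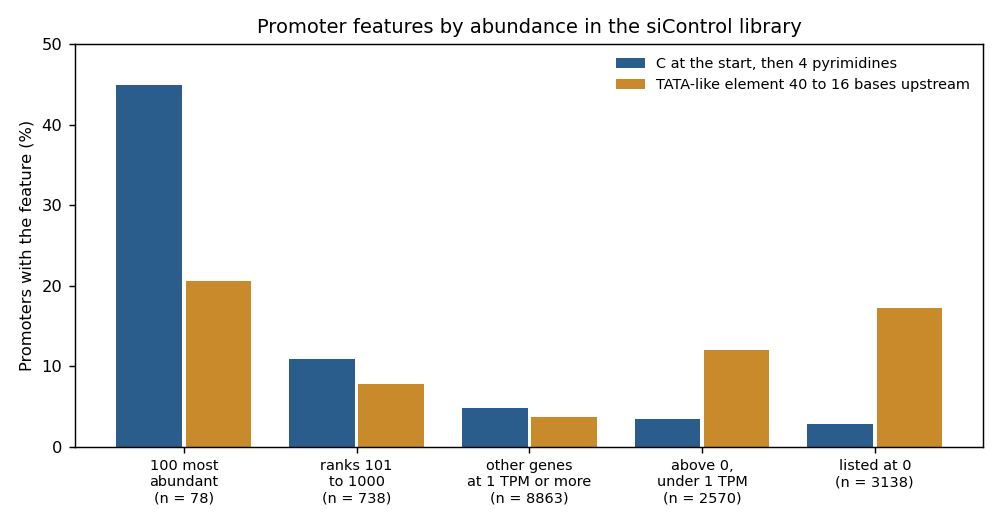
Share of promoters (vertical axis, percent) with a C at the start and 4 pyrimidines after it (blue), or with TATAA or ATAAA 40 to 16 bases before the start (orange), in 5 classes of TPM in the siControl library (horizontal axis, with the number of promoters). The blue share is 44.9% in the 100 most abundant genes and 2.87% in genes listed at 0, and the orange share is 20.5% and 17.2% in these classes and 3.67% in the middle one.

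Squamous and oral identity genes were expressed broadly. Over 10 lists of keratins, transcription factors, adhesion and differentiation genes, 103 of 134 genes (76.9%) were at 1 TPM or more, against 60.8% of all nuclear protein-coding genes, and their median was 28.6 TPM against 5.44 TPM. Together they held 4.09% of nuclear protein-coding TPM. The lists were picked around squamous and oral epithelium, with earlier results of these data known. They also hold keratins of simple epithelium and genes of skin and hair, KRT18, KRT2 and DSG4 among them. The counts therefore describe the library and support nothing about the lists.

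Transcription factors of squamous and oral epithelium were present in 23 of 25 cases, with a median of 23 TPM. ELF3, an epithelial factor of differentiation, was highest at 324 TPM, followed by TP63, KLF5 (147 TPM) and PITX1 (118 TPM), a homeobox factor of the oral and jaw region. SOX2, a factor of the basal layer of tongue and oesophagus, was at 69.8 TPM. PAX9, a factor of the tongue, teeth and pharynx, was at 27.2 TPM. Grainyhead factors were led by GRHL2 at 38.9 TPM, above GRHL1 (15.7 TPM) and GRHL3 (11.7 TPM). The differentiation factors OVOL1 (1.35 TPM) and ZNF750 (5.44 TPM) were low, IRX4 was just under the limit at 0.953 TPM, and ELF5 was at 0.0587 TPM.

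Keratin levels differed within most of the pairs named here. KRT5 was 22.7-fold above its usual partner KRT14 (215 TPM). KRT15, another basal keratin and not a pair with KRT14, was 31.7-fold above KRT14 and also above KRT5. In the wet-mucosa pair KRT13 was 10.3-fold above KRT4 (370 TPM). KRT6A, an injury keratin, was at 858 TPM and its usual partner KRT16 at 31.2 TPM. KRT17, of the same list, was at 758 TPM, so the gap depends on the partner chosen. KRT6A, KRT6B (4.64 TPM) and KRT6C (0.837 TPM) are near-identical copies, so the sum of 864 TPM is firmer than its parts. The simple-epithelial pair KRT8 (345 TPM) and KRT18 (252 TPM) differed by 1.37-fold. KRT19, common in many carcinomas, was at 2.40 TPM, and KRT7 at 19.3 TPM. Of 10 keratins of cornified or palatal epithelium, 2 were at 1 TPM or more, KRT10 (42.8 TPM) and KRT80 (28.2 TPM). KRT78 came next at 0.625 TPM. KRT1, the partner of KRT10 in skin, was at 0.514 TPM, and KRT2 and KRT76 were listed at 0.

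Adhesion to the basement membrane was fully represented. All 12 hemidesmosome and basement membrane genes were at 10 TPM or more, with a median of 95.8 TPM. The integrin chains ITGB1 (292 TPM), ITGB4 (168 TPM), ITGA6 (133 TPM) and ITGA3 (128 TPM) were high, as was the tetraspanin CD151 (172 TPM), which binds laminin-receptor integrins. The chains of laminin-332, the main anchoring laminin of squamous epithelium, were unequal, with LAMB3 at 170 TPM and LAMA3 at 41.2 TPM. The hemidesmosome collagen COL17A1, at 29.1 TPM, was the lowest of the list.

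Of 22 desmosome and tight junction genes, 18 were at 10 TPM or more. Plakoglobin, JUP, led at 379 TPM, and desmoplakin, DSP, was at 189 TPM. The desmosomal cadherins DSG2 (147 TPM), DSC3 (95.3 TPM), DSG3 (73.2 TPM) and DSC2 (35.8 TPM) were present, whereas DSG1 (0.0635 TPM), DSC1 (0.696 TPM) and DSG4 (0.0284 TPM), which belong to upper epidermal layers and hair, were not. P-cadherin, CDH3, a basal cadherin, was at 118 TPM, 2.70-fold above E-cadherin, CDH1 (43.6 TPM). The carcinoma surface antigen EPCAM was at 159 TPM and the claudin CLDN1 at 118 TPM.

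The cornified envelope, the protein shell of fully differentiated squames, was expressed in part. Of 20 genes, 10 (50%) were at 1 TPM or more, against 60.8% of all nuclear protein-coding genes, with a median of 0.978 TPM. The cross-linked scaffold proteins PPL (94.5 TPM) and EVPL (23.1 TPM) and the cross-linking enzyme TGM1 (22.3 TPM) were highest, followed by the small proline-rich proteins SPRR1B (19.0 TPM) and SPRR3 (10.8 TPM) and by involucrin, IVL (9.0 TPM). Late components were absent, with filaggrin, FLG, at 0.0246 TPM, the oral cornulin CRNN at 0.0712 TPM, and LORICRIN, KRTDAP and TGM3 listed at 0. Other differentiation genes were at 1 TPM or more in 26 of 30 cases. S100A2, S100A14 (779 TPM), the cell cycle adaptor SFN (708 TPM), S100A16 (479 TPM) and the protease inhibitor CSTA (301 TPM) led them. MAL and KLK13 were listed at 0. SERPINB3 and SERPINB4 are near-identical copies, and the higher of the pair, SERPINB3, was listed at 5.58 TPM.

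**Figure D3:**
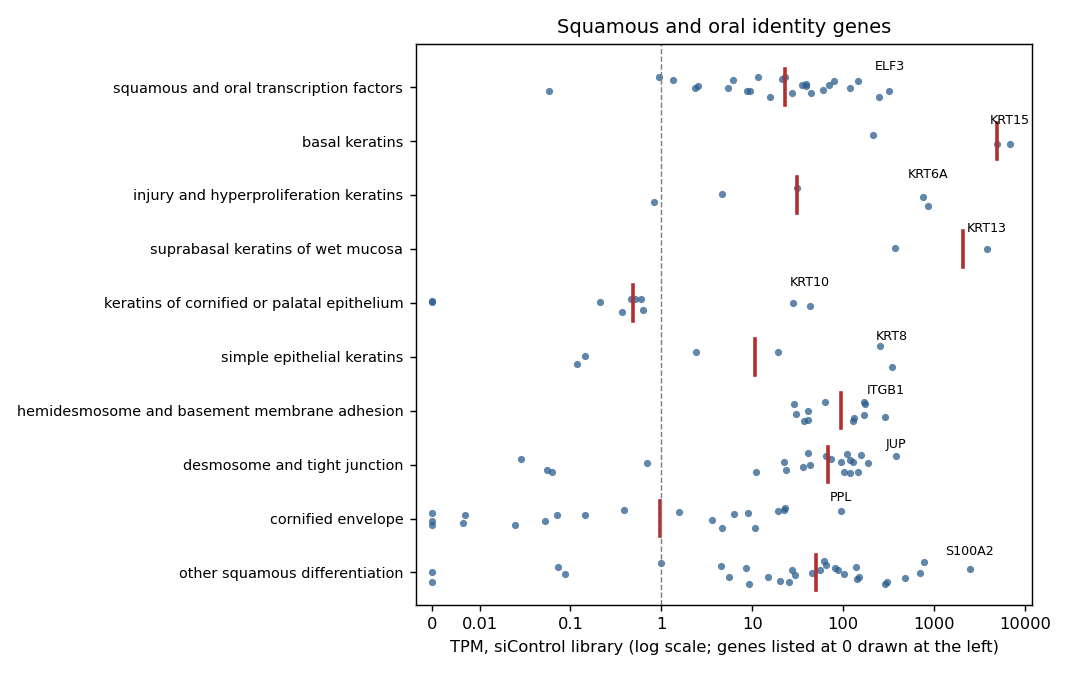
TPM of each gene in the siControl library (horizontal log axis, genes listed at 0 at the left) in 10 lists of squamous and oral identity genes (rows). Points are genes, red bars are list medians, the dashed line is 1 TPM and the highest gene of each list is named where it reached 5 TPM. The basal keratin median is 4883 TPM, and the medians of cornified envelope genes and of cornified or palatal keratins lie under 1 TPM.

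Receptors were selective by family. Over the receptor and oncogene lists, 101 of 151 genes (66.9%) were at 1 TPM or more, against 60.8% of all nuclear protein-coding genes. Receptor tyrosine kinases, which turn extracellular ligands into growth signals, were at 1 TPM or more in 26 of 58 cases, or 44.8%, below that background. The collagen receptor DDR1 was highest at 245 TPM, while its paralogue DDR2, a receptor of mesenchymal cells, was at 0.116 TPM. EGFR, the epidermal growth factor receptor, followed at 147 TPM.

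Within the EGFR family, EGFR was 3.95-fold above ERBB2 (37.3 TPM) and 8.15-fold above ERBB3 (18.1 TPM), and ERBB4 was listed at 0. Of 11 ligands of the family, 7 (63.6%) were at 1 TPM or more, near the 60.8% of all nuclear protein-coding genes. Amphiregulin, AREG, a ligand of EGFR, led at 41.2 TPM, ahead of the ERBB3 ligand NRG1 (19.6 TPM), EPGN (14.3 TPM), NRG4 (11.6 TPM), TGFA (7.6 TPM), BTC (5.22 TPM) and HBEGF (3.96 TPM). EGF itself was at 0.544 TPM and EREG at 0.237 TPM.

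Fibroblast growth factor receptors were led by FGFR3 (91.4 TPM) and FGFR2 (50.5 TPM), which epithelia typically carry, with FGFR4 at 4.87 TPM and FGFR1 at 0.867 TPM. FGFR3 was 105-fold above FGFR1. The stromal ligands of FGFR2, FGF7 (0.200 TPM) and FGF10 (listed at 0), were absent, whereas FGF2 (11.8 TPM), FGF1 (6.17 TPM) and the carrier protein FGFBP1 (316 TPM) were present. Of 35 ligands of receptor kinases outside the EGFR family 22 (62.9%) were at 1 TPM or more, near the 60.8% of all nuclear protein-coding genes. The ephrin EFNA1 (47.8 TPM) was among them. A receptor without its listed ligand was also seen for MET (47.0 TPM), since its ligand HGF was listed at 0, and for IGF1R (5.85 TPM), since IGF1 and IGF2 were listed at 0. Other receptors were just above 1 TPM and below their ligands, namely KIT (1.09 TPM) with KITLG (30.7 TPM), CSF1R (1.48 TPM) with CSF1 (26.9 TPM), and AXL (1.53 TPM) with GAS6 (37.4 TPM). TYRO3, another GAS6 receptor, was at 14 TPM. VEGFA was at 81.7 TPM while its endothelial receptors KDR (listed at 0) and FLT1 (0.00895 TPM) were absent.

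The remaining kinases above 15 TPM were the WNT-linked pseudokinases RYK (77.0 TPM) and PTK7 (68.9 TPM), the ephrin receptors EPHB2 (41.6 TPM), EPHB4 (29.2 TPM), EPHA2 (21.0 TPM), EPHB3 (17.0 TPM) and EPHA1 (15.8 TPM), and MST1R (18.7 TPM), the receptor of macrophage-stimulating protein. PDGFRA, FLT3, INSRR, LMTK3 and EPHA7 were listed at 0, and ALK, RET, ROS1 and the 3 NTRK receptors lay between 0.0404 TPM (NTRK3) and 0.602 TPM (NTRK2).

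**Figure D4:**
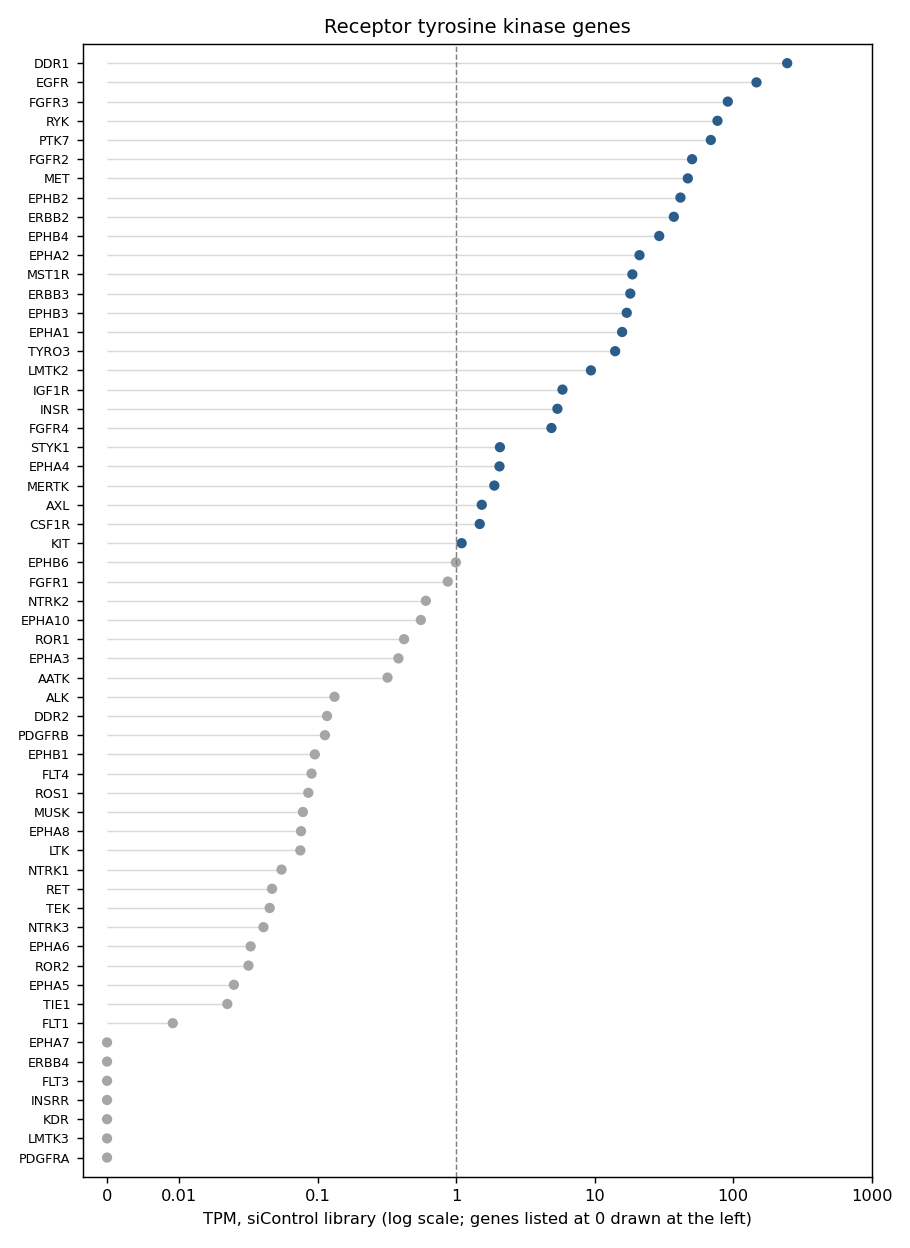
TPM of the 58 receptor tyrosine kinase genes in the siControl library (horizontal log axis, genes listed at 0 at the left), ordered by level. Blue points are at 1 TPM or more, grey points below, and the dashed line is 1 TPM. DDR1 is highest at 245 TPM, EGFR follows at 147 TPM and 7 genes are listed at 0.

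Among 47 other growth-control receptors, 38 (80.9%) were at 1 TPM or more, against 60.8% of all nuclear protein-coding genes, with a median of 15.4 TPM. The heparan sulfate carriers SDC1 (388 TPM), SDC4 (299 TPM) and GPC1 (208 TPM), the hyaluronan receptor CD44 (360 TPM) and the transferrin receptor TFRC (280 TPM) led the list. The scavenging chemokine receptor ACKR3 was at 159 TPM, whereas CXCR4, which shares its ligand CXCL12, was listed at 0, as was CXCL12. Notch receptors were led by NOTCH3 (37.6 TPM) and NOTCH2 (15.4 TPM), with NOTCH1, the Notch receptor most tied to squamous differentiation, at 0.608 TPM. The checkpoint ligand CD274 was at 3.38 TPM. Of the Hedgehog receptors, PTCH1, which binds the ligand, was at 4.42 TPM, and SMO, which passes the signal on, at 0.0173 TPM.

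Of 18 nuclear hormone receptors, 12 (66.7%) were at 1 TPM or more, near the 60.8% of all nuclear protein-coding genes. The retinoic acid receptor of skin, RARG, led at 87.5 TPM, 6.50-fold above RARA (13.5 TPM), with RARB at 0.796 TPM. RXRA, the shared partner of these receptors, was at 64.1 TPM. The glucocorticoid receptor NR3C1 was at 28.2 TPM and the vitamin D receptor VDR at 27.8 TPM. The oestrogen receptor ESR1 was at 1.92 TPM, and the progesterone receptor PGR was listed at 0.

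Of 28 genes known as head and neck carcinoma oncogenes or as neighbours on chromosome 11q13, a region often gained in this cancer, 25 were at 1 TPM or more. That is 89.3%, against 60.8% of all nuclear protein-coding genes. The antioxidant factor NFE2L2 was at 143 TPM. Genes of 11q13 itself differed widely. The cyclin CCND1 was at 126 TPM, the actin regulator CTTN at 109 TPM, the chloride channel ANO1 at 64.6 TPM and the death adaptor FADD at 24.1 TPM. Their neighbours FGF3 and FGF4 were listed at 0, and FGF19 was at 0.244 TPM. The kinase CDK4, a partner of CCND1, was at 154 TPM and its inhibitor CDKN2A at 34.1 TPM. Copy number was not measured here.

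Secreted proteins were taken in 9 lists, which also hold some membrane-anchored proteins, SPINT2 and EFNA1 among them. Over these, 161 of 242 genes (66.5%) were at 1 TPM or more, against 60.8% of all nuclear protein-coding genes, and they held 1.26% of nuclear protein-coding TPM. Of 32 secreted proteases 28 were present, the largest share of the 9 lists. The lysosomal cathepsins CTSD (609 TPM) and CTSB (242 TPM) led the list, followed by the kallikrein KLK8 (138 TPM), the serine protease PRSS23 (121 TPM) and KLK5 (102 TPM), a kallikrein that acts in the shedding of squames. Urokinase, PLAU, was at 65.8 TPM and tissue plasminogen activator, PLAT, at 40.7 TPM. Secreted metalloproteinases were lower, with MMP28 at 21.8 TPM, MMP10 at 17.9 TPM, MMP2 at 17.8 TPM, the collagenase MMP1 at 10.1 TPM and MMP9 at 0.0855 TPM.

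Of 21 secreted protease inhibitors 15 (71.4%) were present, against 60.8% of all nuclear protein-coding genes. SPINT2, which blocks membrane serine proteases, was at 518 TPM, the mucosal elastase inhibitor SLPI at 304 TPM and cystatin C, CST3, at 180 TPM. SPINK5, the inhibitor of epidermal kallikreins, was at 17.6 TPM.

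Matrix genes were present in 29 of the 41 listed (70.7%), against 60.8% of all nuclear protein-coding genes. Within this list SPARC, a collagen-binding matrix protein, was highest at 467 TPM, followed by TGFBI (225 TPM), LAMA5 (123 TPM) and AGRN (105 TPM). Fibronectin, FN1, was at 1.29 TPM, and SPARC was 361-fold above it. The fibrillar collagens COL1A1 (3.68 TPM), COL3A1 (0.0501 TPM) and COL1A2 (0.0106 TPM) were low or absent, while the basement membrane collagens COL4A2 (29.8 TPM), COL4A5 (24.0 TPM) and COL4A1 (17.0 TPM) were present.

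A list of TGF-beta, WNT and other growth factors, which also holds TGFA, was at 1 TPM or more in 25 of 36 cases (69.4%). The share over all nuclear protein-coding genes was 60.8%. The list was led by midkine, MDK (204 TPM), DKK3 (183 TPM), BMP7 (143 TPM) and follistatin, FST (62.9 TPM). WNT7B (52.5 TPM) was the highest of the WNT ligands listed, and PTHLH, the hormone of tumour hypercalcaemia, was at 45.3 TPM. The YAP-responsive matricellular gene CCN1 was at 23.5 TPM and its paralogue CCN2 at 0.427 TPM. IGFBP2 (314 TPM), IGFBP6 (129 TPM), IGFBP7 (85.4 TPM) and IGFBP3 (62.5 TPM) were the main ones of 7 IGF-binding proteins, and IGFBP1 was listed at 0.

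Of 38 cytokine and chemokine genes 19 (50%) were at 1 TPM or more, against 60.8% of all nuclear protein-coding genes. MIF (596 TPM), the death ligand TNFSF10 (138 TPM), CXCL16 (72.3 TPM), CX3CL1 (63.6 TPM), the interleukin-1 antagonist IL1RN (56.4 TPM), IL18 (45.4 TPM) and IL1B (25.5 TPM) were the only members at 10 TPM or more. The neutrophil chemokines CXCL1 (4.71 TPM) and CXCL8 (2.55 TPM) were low, and IL6, TNF, CSF2, CSF3, CCL2 and CXCL5 were among 13 listed at 0. Of 22 mucosal defence proteins 12 (54.5%) were at 1 TPM or more, near the same background. They were led by the calprotectin chains S100A9 (288 TPM) and S100A8 (151 TPM), clusterin, CLU (131 TPM), and the siderophore-binding LCN2 (78.1 TPM). DEFB1 was at 9.56 TPM, and LTF, LYZ, DEFB4A, DEFB103A, BPIFA1 and TFF3 were listed at 0.

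Genes of other lineages were mostly absent. Over 16 lists, 217 of 257 genes were under 1 TPM and 123 were listed at 0, against 39.2% of all nuclear protein-coding genes under 1 TPM. Their median was 0.0162 TPM. These lists were picked as genes of other cell types, with earlier results of these data known, so the counts only describe the library. SOX2 and HOPX are counted here and among the identity genes. None of the 23 gut, liver and pancreas genes reached 1 TPM in this library, with AFP at 0.704 TPM and CDH17 at 0.391 TPM. Of 21 salivary gland genes 1 did, the proline-rich protein PRH1 (3.03 TPM). ODAM (0.955 TPM), also in the enamel list, and HTN3 (0.608 TPM) came next, and the salivary amylases AMY1A, AMY1B and AMY1C were listed at 0. In the taste bud list the calcium channel ITPR3, also used outside taste cells, was at 18.5 TPM, the factor POU2F3 at 2.16 TPM and CALHM3 at 0.291 TPM, and the receptor genes TAS1R1, TAS1R2 and TAS1R3 were under 1 TPM.

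Markers of stromal and blood cells were mostly under 1 TPM, with a few exceptions in each list. Of 17 fibroblast genes 5 were at 1 TPM or more, led by S100A4 (8.62 TPM), TWIST1 (5.24 TPM) and TAGLN (5.23 TPM), while PDGFRA, FAP, THY1, PRRX1 and TWIST2 were listed at 0. Vimentin, VIM, the intermediate filament of mesenchymal cells, was at 0.654 TPM, and CDH1 was 66.7-fold above it. N-cadherin, CDH2, was at 4.75 TPM in the table. Of 16 endothelial genes 2 were at 1 TPM or more, the cadherin CDH5 (16 TPM) and VWF (1.57 TPM), while SOX18 was at 0.655 TPM, PECAM1 at 0.288 TPM and KDR, CLDN5 and ROBO4 were listed at 0. Of 21 immune genes 3 were at 1 TPM or more, the lysosomal CD68 (35.7 TPM), CD14 (1.79 TPM) and CSF1R, while the pan-leukocyte PTPRC, CD3D, CD3E and SPI1 were listed at 0. Melanocyte genes were absent but for MITF (7.96 TPM) and PMEL (1.82 TPM), with MLANA at 0.182 TPM and TYR, TYRP1, DCT and SOX10 listed at 0.

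Nerve, muscle, germ cell and appendage genes gave few exceptions. The neuronal list held the tubulin TUBB3 (9.93 TPM) and the enolase ENO2 (4.58 TPM), with SYP next at 0.616 TPM, while CHGA and SNAP25 were listed at 0. The glial list held MBP (26.7 TPM) alone, with GFAP at 0.648 TPM and OLIG2 listed at 0. The muscle list held TNNT3 (5.89 TPM) and PAX3 (2.04 TPM), with TNNI2 next at 0.758 TPM and MYOD1, DES and CKM listed at 0. SOX2 and POU5F1 (1.95 TPM) were the only members at 1 TPM or more of the germ cell and pluripotency list, SYCP1 was at 0.758 TPM, and the antigens MAGEA1, MAGEA4, MAGEC1, PRAME and CTAG2 were listed at 0. In the appendage list FASN, a fatty acid synthase also used in most growing cells, was at 219 TPM, the hair factor HOXC13 at 3.15 TPM and the hair keratin KRT81 at 2.90 TPM. The enamel list held AMTN (8.98 TPM) and KLK4 (2.24 TPM), with AMELX, AMBN and ENAM listed at 0. Of the 16 erythroid and megakaryocyte genes 14 were under 1 TPM. The platelet integrin ITGA2B was at 1.21 TPM, and the fetal globin HBG2, a near-identical copy of HBG1, was at 0.233 TPM.

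The exception among these lists by level was SCGB1A1, the secretoglobin of airway club cells. SCGB1A1 (chromosome 11, 62419033 to 62423195, plus strand) was at 893 TPM and ranked 109, above 99.4% of nuclear protein-coding genes. It was at 893 TPM in siControl, 1256 TPM in sip53 and 690 TPM in siBACH1, so it was listed at a high level in all 3 libraries. No reads were examined, so what this value was counted from was not tested. Other genes of the lung and thyroid list were far lower, with the lineage factor NKX2-1 at 6.47 TPM, PAX8 at 2.61 TPM, thyroglobulin, TG, at 2.0 TPM and SCGB3A2 at 1.81 TPM. The surfactant genes SFTPB (0.284 TPM), SFTPC (0.101 TPM) and SFTPA1 (listed at 0) and the ciliary factor FOXJ1 (0.0500 TPM) were absent. SCGB1A1 held 0.125% of nuclear protein-coding TPM, and the whole list held 0.127%. Lists of breast, prostate, kidney and bladder genes had 4 of 19 members at 1 TPM or more, led by TRPS1 at 7.26 TPM.

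**Figure D5:**
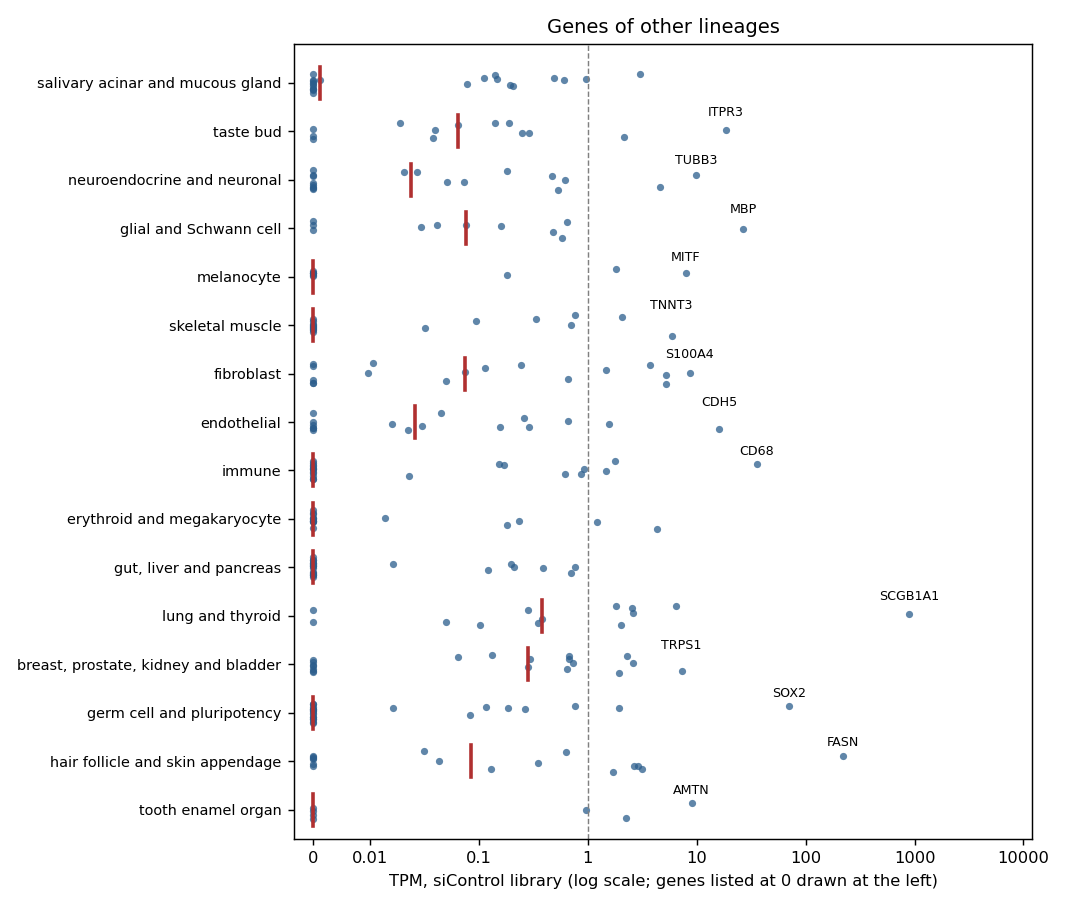
TPM of each gene in the siControl library (horizontal log axis, genes listed at 0 at the left) in 16 lists of other lineages (rows). Points are genes, red bars are list medians, the dashed line is 1 TPM and the highest gene of each list is named where it reached 5 TPM. All 16 medians lie under 1 TPM, and SCGB1A1 stands out at 893 TPM.

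The level classes were close to those of the other 2 libraries, which received other siRNAs and are not replicates. Genes at 1 TPM or more numbered 11706 in siControl, 11649 in sip53 and 11654 in siBACH1. Of the 100 most abundant genes in siControl, 95 were among the first 100 in sip53 and 98 in siBACH1. Of the 217 other-lineage genes under 1 TPM, 210 were also under 1 TPM in sip53 and 213 in siBACH1, and the highest of them reached 1.76 TPM and 1.30 TPM in those libraries. Of the 103 identity genes at 1 TPM or more, 101 were also so in each of them. NOTCH1 was at 0.608 TPM in siControl, 1.43 TPM in sip53 and 0.700 TPM in siBACH1, so its place under 1 TPM held in 2 of 3 libraries.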

How the data were processed

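Per the labels' protocols, total RNA from Cal-33 cells went into libraries of a SMARTER mRNA kit. The authors deposited 1 table of TPM, with a column per library and 1 library per siRNA, per the file headers. The submitters' processing notes name bcl2fastq 2.20 and kallisto 0.44.0, and the builds GRCh38, GRCm38 and mm10 without a role. The sources used here do not give the transcript annotation, how transcripts were summed to genes, or strand handling. TPM sums to 1000000 per library, of which 2.16% was not listed in siControl, and the depth behind it is unknown. Reads that match several near-identical copies are divided among them by an estimate, which makes paralogs and pseudogenes uncertain.

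The siControl column was taken through its label. Of 28890 symbols, 28801 matched a RefSeq symbol or a synonym held by 1 gene, which gave 19248 nuclear protein-coding genes, 13 mitochondrially encoded genes, 9029 pseudogenes and 600 others. Genes at 1 TPM or more were counted as present. Named genes were the 4 markers, the 30 most abundant nuclear protein-coding genes, and members of 39 lists, of which the 3 highest of each list and, for other lineages, each member at 10 TPM or more were named. PRB1 and DSPP, of the lists, were not used here, Y-linked genes stayed in the counts and ranks but are not named, and a few other genes the rule names go unreported. Classes of the 100 most abundant genes, families and the printed promoters were chosen after values were seen. Members and lists were chosen with earlier results of these data known. No test was run, since there is 1 library per group. Promoters are those of the RefSeq table, from 250 bases before to 50 bases after the start. Alternatives were a minimum of 0.5 or 5 TPM, other TPM denominators, pseudogene TPM added to the gene it is named after, other sizes of the top list and, added after seeing the data, GENCODE 29 gene types. The scripts ran in Python 3.11.15 with pandas 2.3.3, numpy 2.4.6 and matplotlib 3.10.9, and counting and ranking were tested on simulated data.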

Additional observations from a re-analysis of the deposited data

How the results depend on the processing

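Of 37 values recomputed under an alternative, 27 were taken as the same, which for counts meant within 1.5 times and for shares and TPM meant identical. Counts of genes at 1 TPM or more kept to this limit under each alternative tried. The protein-coding count ran from 9777 (minimum of 5 TPM) to 12368 (minimum of 0.5 TPM), and the other-lineage genes below the minimum from 196 (0.5 TPM) to 241 (5 TPM). The share of TPM held by the 100 most abundant nuclear genes was 19.3% of listed TPM, 26.4% over nuclear protein-coding genes, 21.5% without ribosomal protein and mitochondrially encoded genes, 19.5% with pseudogene TPM added, and 20.0% with GENCODE 29 gene types, which count MTRNR2L12 as protein-coding. Ribosomal protein genes were 28 of the 50 most abundant, 55 of the 100 and 74 of the 200. The GENCODE alternative was chosen after seeing the data. These changes follow from the denominators, gene sets and list sizes. Rescaling to nuclear protein-coding genes multiplied each TPM by 1.40. Pseudogene TPM changed KRT17 among the markers, to 759 TPM. No paired analysis was possible because there is 1 library per group. Without read depth, genes near 1 TPM cannot be placed with confidence.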

Other observations

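Families taken whole by symbol were chosen after the lists had been seen, and their counts stand beside 60.8% of all nuclear protein-coding genes at 1 TPM or more. Of 39 HOX genes, which mark position along the body, 21 (53.8%) were at 1 TPM or more, near that background. Among them were HOXD10 (25.4 TPM), HOXB7 (13.7 TPM), HOXA10 (10.3 TPM) and HOXD11 (9.95 TPM). In the HOXA cluster 10 of 11 genes were at 1 TPM or more, and HOXA13 was at 0.114 TPM. Of those 10, HOXA2 (1.07 TPM) and HOXA7 (1.06 TPM) were so close to 1 TPM that their place is uncertain. The HOXB cluster had 2 of 10, the HOXC cluster 5 of 9 and the HOXD cluster 4 of 9, namely HOXD8 to HOXD11, while HOXD3 was listed at 0. Of 9 PAX genes 3 (33.3%) were at 1 TPM or more, and PAX9 was the only member at 10 TPM or more.

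Of 14 aquaporins 2 (14.3%) were at 1 TPM or more, AQP3, the glycerol and water channel of squamous epithelium (647 TPM), and AQP10 (1.44 TPM). The glucose transporter SLC2A1 was at 242 TPM and SLC2A3 at 0.675 TPM. Of 26 integrin chains 15 (57.7%) were at 1 TPM or more, near the 60.8% of all nuclear protein-coding genes. Among them were ITGB5 (101 TPM), ITGA2 (64.7 TPM), ITGAV (48.9 TPM) and ITGB6 (27.9 TPM), while ITGA5, the fibronectin receptor chain, was at 7.18 TPM. Of 50 FOX factors 22 (44%) were at 1 TPM or more. The proliferation factor FOXM1 (82.0 TPM) led them, with FOXQ1 (48.7 TPM), FOXK2 (44.8 TPM) and FOXA1 (36.2 TPM) after it. The retinal dehydrogenases ALDH1A1 (43.3 TPM) and ALDH1A3 (40.2 TPM) were both present. Of 11 secretoglobins 8 were listed at 0, and SCGB1A1 was 494-fold above SCGB3A2, the only other member at 1 TPM or more.

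Of 392 olfactory receptors 2 reached 1 TPM, OR4F17 (5.22 TPM) and OR2A7 (2.51 TPM), or 0.510%, and 310 were listed at 0. This family does not stand for the other-lineage lists, where 40 of 257 genes (15.6%) were at 1 TPM or more. Some of those 40, FASN and ITPR3 among them, are also used outside the listed lineage. Of 25 bitter taste receptors, which taste cells of the tongue use, 0 reached 1 TPM, and TAS2R14 was highest at 0.511 TPM.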
